A study of Mus musculus with 5 samples.

Results

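Potassium channels and their auxiliary subunits were compared between the medial and the lateral cortex of mouse embryos. The members were the gene symbols that begin with Kcn, followed by letters, a number and at most 1 further letter, which took 93 of the 34590 symbols in the count files. Kcnrg was the only symbol beginning with Kcn that this rule left out. The medial group had 3 libraries and the lateral group 2. All came from untreated wild-type embryos of mixed strain background at E14.5, whose cortex was dissected and whose polyadenylated RNA was sequenced without marking the strand. The labels do not say whether the libraries came from separate or pooled embryos, so p-values measure the spread between these samples only.

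Potassium channels let potassium leave or enter a cell down its gradient and thereby set the resting potential and the shape and rate of action potentials. Voltage-gated channels open on depolarization, inward rectifiers and two-pore channels carry much of the resting current, and channels gated by calcium or sodium couple firing to ion entry. Auxiliary subunits change where these channels sit and how they gate. In the embryonic cortex, progenitors rest on inward rectifier and two-pore currents, and voltage-gated channels come on as neurons mature.

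The medial libraries held 27406370 to 36460274 gene reads and the lateral libraries, which were deeper, 56147129 to 66981952. A level is given below as counts per 1000000 gene reads after TMM scaling (CPM). Medial library 1 stood apart from the other libraries: its 7 meningeal markers summed to 295 CPM, against 14.1 to 21.8 CPM elsewhere, and its 7 cortical hem markers (the hem is a source of Wnt signals beside the hippocampal field) summed to 314 CPM, against 99.8 and 118 CPM in the other medial libraries. Of 10 tested pan-neuronal markers, 5 were lower and 1 was higher in medial cortex, and their sum was 1151 to 1792 CPM in medial and 2368 to 3043 CPM in lateral libraries. Markers of upper-layer neurons summed to 442 to 535 CPM in medial and 767 to 939 CPM in lateral libraries, with 4 of 6 lower and a median log2 fold change (medial over lateral) of −2.22. Those of deep-layer neurons summed to 363 to 818 and 1323 to 1618 CPM, with 3 of 5 lower and a median of −1.41. Radial glia markers summed to 2933 to 3623 CPM in medial and 1969 to 2303 CPM in lateral libraries, with 2 of 8 higher, and markers of dividing cells to 2372 to 2990 and 1552 to 1833 CPM, with 2 of 7 higher. All 6 Cajal-Retzius markers, which mark the reelin-secreting neurons of the cortical surface, were higher in medial cortex, with sums of 499 to 606 CPM against 156 to 194 CPM. GABAergic markers summed to 2.66 to 16.6 CPM in medial and 65.1 to 94.2 CPM in lateral libraries, with 6 of 8 lower. None of these lists had a marker at 0 in every library. The part of these differences in the results below was not tested, and in tissue samples fewer cells of a type and less RNA per cell cannot be told apart.

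Most of the potassium channel genes that differed were higher in lateral cortex. Of 93 members, 70 had enough reads to be tested. With edgeR's quasi-likelihood test and an adjusted p of 0.05, 4 were higher in medial cortex (Kcnj5, Kcne1l, Kcnip1 and Kcnj10) and 9 were lower (Kcnv1, Kcnq3, Kcna3, Kcnmb2, Kcnc2, Kcna6, Kcna1, Kcnma1 and Kcnq5). These 13 were 18.6% of the members tested, against 9.72% of all 16229 genes tested. Over all genes, 4.62% were called higher and 5.1% lower. The median log2 fold change (medial over lateral) was −0.50 over the tested members and 0.01 over all genes tested, with 47 members negative and 23 positive. All 3 medial libraries lay below both lateral libraries in 35 members and above both in 15, and for all genes those shares were 26.7% and 26.5%. At an unadjusted p under 0.05 there were 40 members (11 higher and 29 lower), against 32.2% of all genes (15.9% higher and 16.3% lower). A further 18 members had adjusted p-values between 0.05 and 0.1.

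**Figure D1:**
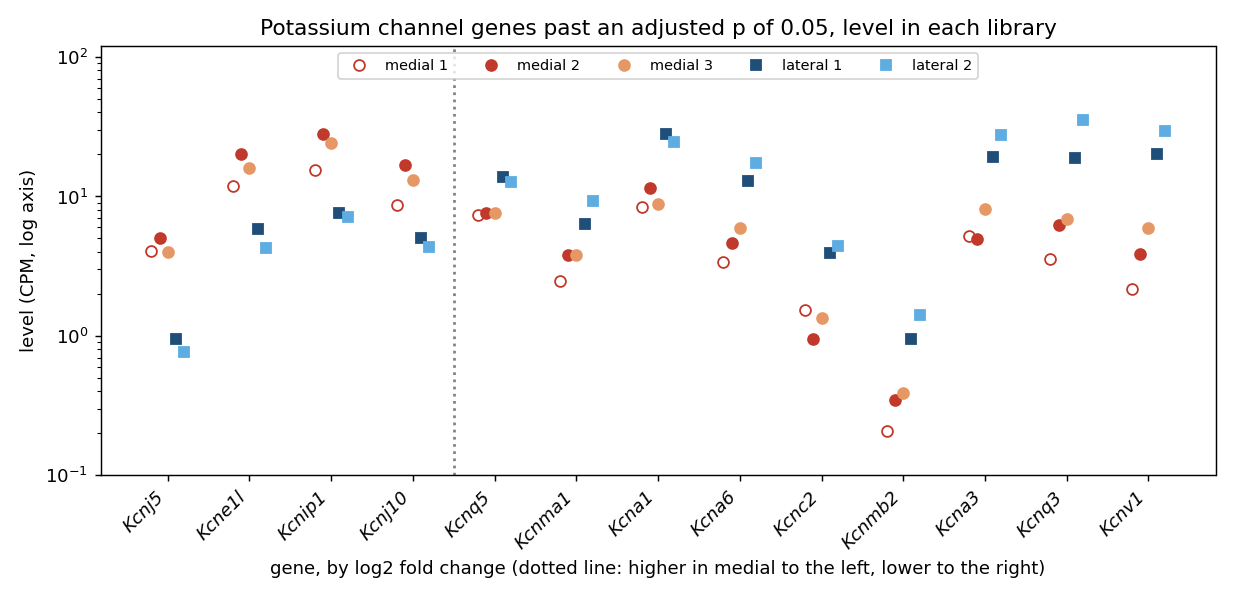
Level in CPM on a log axis (vertical) of the 13 members past an adjusted p of 0.05 (horizontal), with 1 point per library; circles are the 3 medial and squares the 2 lateral libraries. In each of the 13 genes the circles and squares do not overlap, with the 4 genes left of the dotted line higher in medial cortex and the 9 to its right lower. The genes were chosen by the test of these same libraries, and in 53.3% of all genes tested the groups do not overlap.

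The number of calls changed with the libraries used, while the fold changes changed less: 0 of the 13 moved by over 1.5 times when any 1 library was left out. Without medial library 2, lateral library 1 or lateral library 2, edgeR called 0 members, and few genes of any kind could pass there, since it called 0%, 0.108% and 0% of all genes tested. Leaving out either lateral library left a single lateral one, with no spread within that region. Without medial library 2, 30 members had an unadjusted p under 0.05 in edgeR, against 24.5% of all genes. DESeq2 called 12 of the 13 there, and 13% of all genes. The 13 were chosen in these same libraries, so such calls add no support. Without medial library 3 edgeR called 6 members (3.01% of all genes), and Kcna1, Kcna3, Kcna6, Kcnj5 and Kcnv1 were the ones of the 13 still called. Without medial library 1, the library that stood apart, 22 members were called (13.2% of all genes), 6 higher and 16 lower, including all 13. The 9 added were Kcnd3, Kcng1, Kcnh3, Kcnh5, Kcnip3, Kcnj11, Kcnj3, Kcnn2 and Kcnn4, of which Kcnh5 is named after its value was seen. In that fit 6.26% of all genes were called higher and 6.94% lower.

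Other settings with all 5 libraries called from 9 to 47 members. Both ends came from fits with a block, by replicate number (9) and by a tag in the deposited names (47). Of all genes, 6.63% and 33.1% were called in these 2 fits. Medial library 3 was alone in its block by replicate number, and medial library 1 by the tag. A library alone in its block adds nothing to the fold change between regions. DESeq2 called 27 (21.7% of all genes), 6 higher and 21 lower, against 10.7% of all genes higher and 11% lower, and all 13 members were among them. Its calls without medial libraries 1, 2 and 3 were 30, 21 and 27 members (19.7%, 13% and 19.4% of all genes), and without lateral libraries 1 and 2 they were 20 and 10 (14.8% and 4.34%). Scaling by DESeq2 size factors, by upper quartiles or by library size alone gave 13, 13 and 14 members (9.71%, 9.69% and 9.78%). The older quasi-likelihood form called 12 (8.85%), limma-voom 16 (9.95%), and libraries thinned to the smallest 14 (9.18%). Without a filter on low counts 14 were called (4.1%), and with at least 1 CPM in 2 libraries 12 (11.6%).

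**Figure D2:**
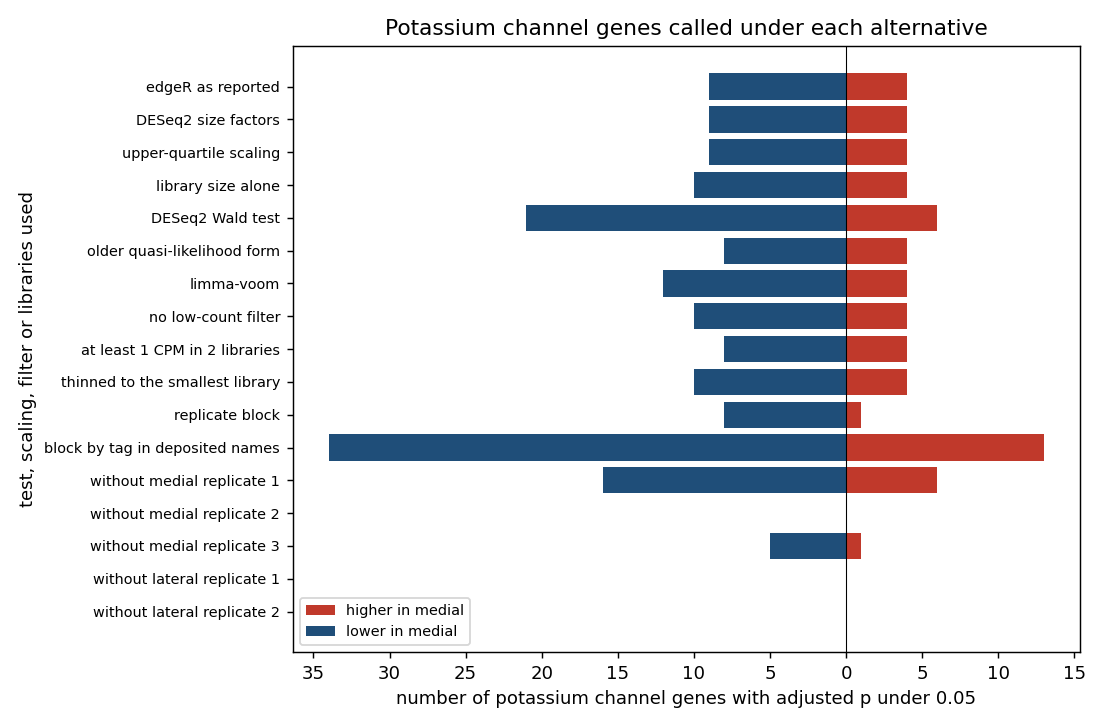
Number of members with an adjusted p under 0.05 (horizontal axis; higher in medial to the right of 0, lower to the left) under each test, scaling, filter or set of libraries (vertical axis). The counts run from 0 without medial library 2 or without either lateral library to 47 with the libraries blocked by a tag in their names (33.1% of all genes called); blocked by replicate number, the count is 9 (6.63%).

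All 6 voltage-gated members that passed, of 27 tested, were lower in medial cortex: 3 shaker-type Kcna genes, Kcnq3 and Kcnq5, and Kcnc2. Over all genes, edgeR called 5.1% lower and 4.62% higher. At an unadjusted p under 0.05 there were 14 lower members and 1 higher (16.3% and 15.9% of all genes), and DESeq2 called 12 lower and 0 higher (11% and 10.7% of all genes). The median log2 fold change of the group was −0.64. Kcna1, Kcna3 and Kcna6 encode pore-forming subunits of low-threshold axonal and somatic channels that limit repetitive firing. Kcna1 had 8.40, 11.5 and 8.90 CPM in medial libraries 1 to 3 and 27.8 and 24.5 CPM in lateral libraries 1 and 2 (log2 fold change −1.45, SE 0.16, edgeR adjusted p = 0.0255). Kcna3 had 5.17, 4.97 and 8.12 CPM against 19.2 and 27.4 CPM (−1.92, SE 0.26, edgeR adjusted p = 0.0296). Kcna6 had 3.40, 4.65 and 5.98 CPM against 13.0 and 17.5 CPM (−1.69, SE 0.26, edgeR adjusted p = 0.0313). In all 3 genes the lowest lateral library was more than 2-fold above the highest medial one. For Kcna6, 39.6% of the exon length in a GRCm38 annotation is covered by an antisense gene that the count files do not list, and reads of the pair cannot be told apart without strand.

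The Kcnq genes encode the slowly activating M-current channels, which hold neurons below threshold. Kcnq3 had 3.57, 6.22 and 6.84 CPM in medial and 18.7 and 35.4 CPM in lateral libraries (log2 fold change −2.28, SE 0.36, edgeR adjusted p = 0.0315). Kcnq5 had 7.32, 7.66 and 7.62 CPM against 13.9 and 12.8 CPM (−0.82, SE 0.12, edgeR adjusted p = 0.0308). The lateral levels of Kcnq3 lay far apart from each other, while those of Kcnq5 were close together within each region, and neither gene overlapped between regions.

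Kcnc2 encodes a fast, high-threshold channel of rapidly firing neurons. It had 1.53, 0.944 and 1.34 CPM in medial and 3.91 and 4.42 CPM in lateral libraries (log2 fold change −1.71, SE 0.24, edgeR adjusted p = 0.0296). Its relative Kcnc4 had a larger fold on few reads, 2, 1 and 6 against 23 and 33, and did not pass (−2.26, SE 0.58, edgeR adjusted p = 0.0568); without medial library 3 that fold change was −3.11. Among the A-type channel genes, whose currents delay firing, Kcnd3 had 34.1, 23.5 and 26.4 CPM against 38.9 and 48.6 CPM (−0.64, SE 0.18, edgeR adjusted p = 0.0724). Kcnd2 had 33.3, 18.0 and 15.1 CPM against 11.4 and 14.2 CPM (0.79, SE 0.36, edgeR adjusted p = 0.187). The medial libraries lay above the lateral ones for Kcnd2 and below them for Kcnd3, and neither gene passed.

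The other voltage-gated genes did not pass. Kcnh7, an ERG-type channel gene, had 33.9, 53.3 and 58.9 CPM in medial and 47.9 and 47.8 CPM in lateral libraries (log2 fold change 0.03, SE 0.23). Kcnh1, an EAG-type channel gene that is also active in dividing cells, had 0.833, 0.595 and 0.918 CPM against 0.228 and 0.539 CPM (1.08, SE 0.44, edgeR adjusted p = 0.153); without lateral library 2 its fold change was 1.78. Kcnh3, named here after its value was seen, was the member nearest to the threshold from outside, at 2.08, 3.32 and 5.84 CPM against 10.3 and 13.9 CPM (−1.67, SE 0.39, edgeR adjusted p = 0.0508).

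**Figure D3:**
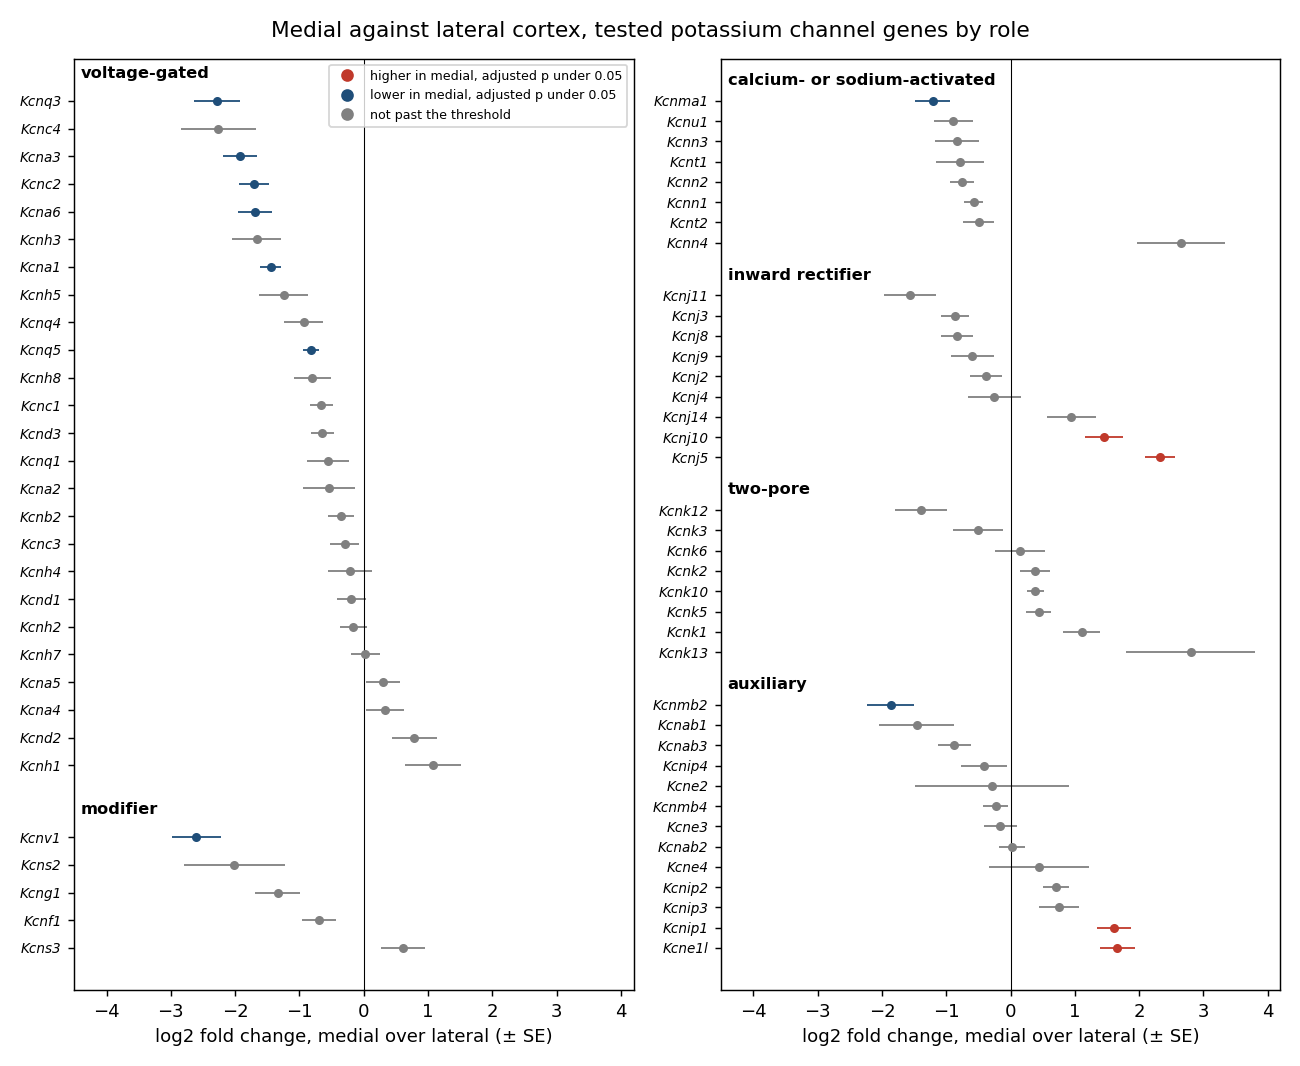
Log2 fold change, medial over lateral, with its standard error (horizontal) for the tested members (vertical; 2 are not drawn), grouped by role; red points were higher, blue points lower and grey points not past an adjusted p of 0.05. The blue points are 6 voltage-gated genes, Kcnv1, Kcnma1 and Kcnmb2, and the red points are Kcnj5, Kcnj10, Kcnip1 and Kcne1l.

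Promoter sequences were looked up for the genes that passed, because these genes moved together in 2 opposite directions. The RefSeq table (build GRCm38.p6) held a promoter, from 250 bases before to 50 after the start, for 68 of the 93 members and for 10 of the 13 that passed; Kcna1, Kcnq3 and Kcnv1 had none there. The motif search covered both strands: the GC box GGGGCGGGG, the right arm of the RE1 element bound by the repressor REST (GGACAGC), an E-box (CAGCTG), a Lef/Tcf site (ATCAAAG) and an octamer (ATGCAAAT). Motifs were searched independently, so matches to different motifs may overlap. The promoters shown are those of both inward rectifier genes that were higher and of 2 genes that were lower, with GC boxes of either strand in capitals.
Kcnj5 promoter, chr9:32344295-32344594, minus strand: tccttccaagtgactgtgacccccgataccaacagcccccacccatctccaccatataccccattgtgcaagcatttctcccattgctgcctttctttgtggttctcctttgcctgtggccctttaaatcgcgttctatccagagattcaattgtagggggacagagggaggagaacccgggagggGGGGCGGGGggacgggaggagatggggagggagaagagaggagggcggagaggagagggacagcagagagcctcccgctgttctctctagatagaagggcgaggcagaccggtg
Kcnj10 promoter, chr1:172340960-172341259, plus strand: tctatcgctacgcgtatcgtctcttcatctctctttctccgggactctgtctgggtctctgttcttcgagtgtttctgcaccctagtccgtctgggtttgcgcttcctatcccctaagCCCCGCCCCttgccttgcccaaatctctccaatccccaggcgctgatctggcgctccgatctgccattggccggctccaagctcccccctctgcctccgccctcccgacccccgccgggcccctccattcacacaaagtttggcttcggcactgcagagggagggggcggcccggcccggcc
Kcnma1 promoter, chr14:24004156-24004455, minus strand: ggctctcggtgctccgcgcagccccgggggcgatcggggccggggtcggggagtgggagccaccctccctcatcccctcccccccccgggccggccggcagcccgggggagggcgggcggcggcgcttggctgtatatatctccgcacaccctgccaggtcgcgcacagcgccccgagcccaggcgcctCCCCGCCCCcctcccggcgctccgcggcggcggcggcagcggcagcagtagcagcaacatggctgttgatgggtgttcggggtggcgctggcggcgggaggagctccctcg
Kcna6 promoter, chr6:126740625-126740924, minus strand: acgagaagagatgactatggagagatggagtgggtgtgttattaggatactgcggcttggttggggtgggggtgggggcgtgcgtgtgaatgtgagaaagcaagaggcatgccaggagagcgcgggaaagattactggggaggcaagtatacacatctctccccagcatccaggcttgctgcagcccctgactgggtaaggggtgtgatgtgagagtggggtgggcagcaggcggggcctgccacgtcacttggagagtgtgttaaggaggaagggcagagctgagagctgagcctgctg
A GC box stood in the promoter of 4 of the genes that passed, Kcnj5, Kcnj10 and Kcnip1, which were higher in medial cortex, and Kcnma1, which was lower. Kcna6 had none. A GC box was held by 11.4% of all 32851 promoters that RefSeq gave and by 14% of the 93 promoters of members. The RE1 arm stood in the promoters of Kcne1l, Kcnj5 and Kcnq5 (6.56% of all promoters, 12.9% of those of members), and the E-box in those of Kcnc2, Kcne1l and Kcnip1 (16.3% and 25.8%). A Lef/Tcf site (3.73% and 3.23%) or an octamer (1.74% and 1.08%) was in none of the promoters of genes that passed. Several genes have more than 1 promoter in the table, so these shares are of promoters and not of genes.

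Modifier subunits form no channel alone and join delayed rectifier subunits to change their gating. Kcnv1, a modifier of forebrain neurons, had 2.19, 3.88 and 5.98 CPM in medial and 20.1 and 29.5 CPM in lateral libraries (log2 fold change −2.60, SE 0.38, edgeR adjusted p = 0.0296). This was the largest fold change among the members that passed, and the 2 groups were more than 3-fold apart at their nearest. Kcng1 had 4.89, 9.55 and 10.4 CPM against 16.2 and 25.9 CPM (−1.34, SE 0.35, edgeR adjusted p = 0.0600), and Kcnf1 had 2.22, 1.22 and 1.75 CPM against 2.65 and 2.97 CPM (−0.69, SE 0.27, edgeR adjusted p = 0.139). Neither passed, nor did Kcns3 (0.61, SE 0.34) or Kcns2 (−2.01, SE 0.79), which had 2, 0 and 9 medial and 21 and 36 lateral reads. The Kcns2 fold change was −3.68 without medial library 3 and −1.42 without lateral library 2. Of 10 modifier genes, 5 were tested and 1 passed, against 9.72% of all genes tested.

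The 8 genes grouped by symbol as calcium- or sodium-activated channels (Kcnma, Kcnn, Kcnt and Kcnu) were all tested. The grouping follows the symbols and not the gating of each member. In 7 of the 8, every medial library lay below both lateral ones, as in 26.7% of all genes tested. Kcnma1, the pore of the large-conductance BK channel, passed, with 2.46, 3.78 and 3.81 CPM in medial and 6.34 and 9.30 CPM in lateral libraries (log2 fold change −1.21, SE 0.27, edgeR adjusted p = 0.0467). Kcnmb2, an auxiliary BK subunit that inactivates the channel, also passed, with 0.208, 0.350 and 0.389 CPM against 0.958 and 1.41 CPM (−1.86, SE 0.37, edgeR adjusted p = 0.0400). It rested on few reads, 6, 10 and 14 in medial and 63 and 76 in lateral libraries. Kcnmb4, the neuronal BK subunit, did not pass, with 9.37, 9.76 and 8.65 CPM against 8.80 and 12.9 CPM (−0.23, SE 0.20). With all 5 libraries and no block, Kcnma1 narrowly lost its call with the older quasi-likelihood form (−1.22, adjusted p = 0.0504 in edgeR) and with limma-voom (−1.19, adjusted p = 0.0503). Kcnmb2 lost it with libraries thinned to the smallest (−2.05, edgeR adjusted p = 0.0512) and was not tested with the filter at 1 CPM. The folds in these fits were close to or above those given.

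The small-conductance genes Kcnn1 and Kcnn2, whose channels follow calcium entry after spikes, did not pass. Kcnn2 had 16.6, 22.3 and 25.9 CPM in medial and 37.1 and 36 CPM in lateral libraries (log2 fold change −0.76, SE 0.19, edgeR adjusted p = 0.0551). Kcnn1 had 14.47, 17.2 and 19.3 CPM against 26.8 and 23.7 CPM (−0.57, SE 0.15, edgeR adjusted p = 0.0602). The sodium-activated Kcnt2 had a log2 fold change of −0.50 (SE 0.24). Kcnn4, the intermediate-conductance channel of blood and epithelial cells, ran the other way on 5, 12 and 19 medial and 2 and 5 lateral reads (2.65, SE 0.68, edgeR adjusted p = 0.0585). Its fold change was 3.53 and 2.00 at the extremes when 1 lateral library was left out. Without medial library 1, Kcnn2 (−0.60, SE 0.11, edgeR adjusted p = 0.0286) and Kcnn4 (2.97, SE 0.55, edgeR adjusted p = 0.0298) passed.

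Both inward rectifier genes that passed, of 9 tested, were higher in medial cortex, as 4.62% of all genes were. Kcnj5, a subunit of G protein-gated channels, had 4.06, 5.0 and 4.01 CPM in medial and 0.958 and 0.761 CPM in lateral libraries (log2 fold change 2.32, SE 0.24, edgeR adjusted p = 0.0253). Kcnj10, the inward rectifier of glial cells that takes up extracellular potassium, had 8.67, 16.9 and 13.1 CPM against 5.0 and 4.35 CPM (1.46, SE 0.30, edgeR adjusted p = 0.0409). The medial levels of Kcnj5 were close to each other, while medial library 1 had the lowest medial level of Kcnj10. Beside them, 2 of 8 radial glia, 6 of 6 Cajal-Retzius and 7 of 7 hem markers were higher in medial cortex, and their part in these 2 results was not tested.

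Kcnj3 and Kcnj11, which had higher levels, did not pass and had every medial library below both lateral ones. Kcnj3, which forms G protein-gated channels with Kcnj5 or with the neuronal Kcnj6, had 11.45, 15.8 and 19.6 CPM in medial and 27 and 30.1 CPM in lateral libraries (log2 fold change −0.87, SE 0.22, edgeR adjusted p = 0.0576). For Kcnj3, 31.1% of the annotated exon length is overlapped by a noncoding gene on the opposite strand that the count files do not list. Kcnj11, the pore of ATP-sensitive channels, had 7.15, 17.5 and 21.6 CPM against 41.7 and 49.4 CPM (−1.56, SE 0.41, edgeR adjusted p = 0.0610). Its sulfonylurea receptor partner Abcc8, which senses nucleotides, passed, with 7.67, 16.8 and 20.8 CPM against 54.6 and 68.9 CPM (−2.03, SE 0.38, edgeR adjusted p = 0.0363). For both partners medial library 1 was the lowest of the 5, and without it Kcnj11 (−1.22, SE 0.14, edgeR adjusted p = 0.0173) and Kcnj3 (−0.69, SE 0.14, edgeR adjusted p = 0.0343) passed. The vascular pair Kcnj8 (−0.83, SE 0.25, edgeR adjusted p = 0.0838) and Abcc9 (−0.60, SE 0.20, edgeR adjusted p = 0.107) did not pass. Abcc9 is named after its value was seen, and 0 of 7 tested pericyte and smooth muscle markers passed in edgeR, with sums of 117 to 140 CPM in medial and 117 to 123 CPM in lateral libraries. The markers of that list did not move together. Rgs5 (−0.61) and Vtn (−0.76) had every medial library below both lateral ones, as Kcnj8 and Abcc9 did, and the others overlapped. Notch3, with the highest levels of the list, weighed most in the sums, at means of 80.1 CPM in medial and 50.4 CPM in lateral libraries. Endothelial markers summed to 81.1 to 94.8 CPM in medial and 107 to 121 CPM in lateral libraries, with 1 of 7 lower, and their part in the Kcnj8 values was not tested. Kcnj2, a strong inward rectifier, had a log2 fold change of −0.38 (SE 0.25). Kcnj6 had 31 reads in all and Kcnj13, a channel of choroid plexus, had 5 reads, all in medial library 3, and neither was tested.

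Two-pore channels carry background current that sets the resting potential. In edgeR 0 of their 8 tested genes were called, against 9.72% of all genes. Of these 8, 3 were higher and 1 lower at an unadjusted p under 0.05 (15.9% and 16.3% of all genes), and DESeq2 called 2 higher (10.7% of all genes). The group had a positive median log2 fold change of 0.38. Kcnk10, an arachidonic acid- and stretch-sensitive channel gene, had 60.1, 77.3 and 65.8 CPM in medial and 55.6 and 48.1 CPM in lateral libraries (0.39, SE 0.13, edgeR adjusted p = 0.110). Kcnk5, an alkaline-activated channel gene, had 12.9, 15.2 and 15.8 CPM against 12.7 and 8.84 CPM (0.44, SE 0.19, edgeR adjusted p = 0.179). Kcnk2, a mechanosensitive relative of Kcnk10, had 16.2, 10.98 and 12.04 CPM against 8.42 and 11.7 CPM (0.38, SE 0.23, edgeR adjusted p = 0.305). In Kcnk10 and Kcnk5 each medial library lay above both lateral ones, in Kcnk5 narrowly, and in Kcnk2 the groups overlapped.

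Kcnk13, a tonic channel gene of microglia, had 2.26 CPM in medial library 1, 0.490 and 0.389 CPM in the other medial libraries and 0.106 and 0.186 CPM in the lateral ones (log2 fold change 2.80, SE 1.00, edgeR adjusted p = 0.119). Without medial library 1 its fold change was 1.59. The 6 microglia markers summed to 43.4 CPM in medial library 1, 22.3 and 25.2 CPM in the other medial libraries and 17.4 and 23.0 CPM in the lateral ones. None of the 6 passed in edgeR, and their part in the Kcnk13 values was not tested. Kcnk13 and Kcne4 (chosen with its level in view) were among the 3 of 70 members with a level in medial library 1 at least 2-fold above every other library, as 2.29% of all genes tested were.

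Of 13 auxiliary genes tested, Kcnip1 and Kcne1l were higher in medial cortex and Kcnmb2, given above, was lower. Over all genes, 4.62% were higher and 5.1% lower. Kcnip1, a calcium-binding subunit that brings Kcnd channels to the surface, had 15.5, 28.2 and 24.1 CPM in medial and 7.66 and 7.15 CPM in lateral libraries (log2 fold change 1.61, SE 0.27, edgeR adjusted p = 0.0318). Kcne1l, a single-pass subunit also known as Kcne5 that dampens Kcnq1 channels, had 11.8, 20.1 and 16.0 CPM against 5.81 and 4.25 CPM (1.66, SE 0.27, edgeR adjusted p = 0.0318). In both genes each medial library was more than 2-fold above each lateral one, and medial library 1 was the lowest medial library. Kcnip2 did not pass, with 2.64, 2.52 and 3.03 CPM against 1.60 and 1.75 CPM (0.71, SE 0.20, edgeR adjusted p = 0.0719). Kcnip3, which also acts as the calcium sensor and repressor DREAM, had 24.7, 51.6 and 48.1 CPM against 25.2 and 23.9 CPM (0.76, SE 0.31, edgeR adjusted p = 0.156). Its medial library 1 lay within the lateral range, and without that library Kcnip3 was called higher (1.02, SE 0.09, edgeR adjusted p = 0.0104). Kcnip4 had 0.250 to 0.315 CPM in medial and 0.319 and 0.464 CPM in lateral libraries (−0.41, SE 0.36).

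The remaining auxiliary genes did not pass. Kcnab1, a cytoplasmic subunit of Kcna channels, had 0.729, 0.315 and 0.890 CPM in medial and 0.988 and 2.71 CPM in lateral libraries (log2 fold change −1.46, SE 0.58, edgeR adjusted p = 0.151); without lateral library 2 its fold change was −0.58. Kcnab2, of the same family, had 9.62 to 14.504 CPM against 10.9 and 12.8 CPM (0.02, SE 0.20). Kcne2, a subunit of choroid plexus channels, had 0, 2 and 11 medial and 2 and 18 lateral reads (−0.28, SE 1.20), and without lateral library 1 that fold change was −1.26. The 8 choroid plexus markers summed to 9.34 to 18.4 CPM in medial and 2.63 and 13.0 CPM in lateral libraries, and 4 of them, Folr1, Kl, Prlr and Slc4a5, were under 1 CPM in every library.

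Pairs of related members, chosen after their values were seen, were set against each other as ratios of CPM per kilobase of annotated exon (GENCODE M21, GRCm38, an approximation because the counted annotation is not given in the sources used here). The ratio of Kcnd3 to Kcnd2 was 0.550, 0.703 and 0.942 against 1.84 in both lateral libraries. In CPM, without the length, Kcnd3 was above Kcnd2 in all 5 libraries, so the order within the pair in medial libraries turns with these exon lengths, while the difference in the ratio between regions does not. The ratio of Kcnj3 to Kcnj5 was 2.53, 2.84 and 4.398 against 25.3 and 35.5, that of Kcnj11 to Kcnj10 was 1.21, 1.53 and 2.42 against 12.3 and 16.7, and that of Kcnip3 to Kcnip1 was 2.80, 3.20 and 3.49 against 5.75 and 5.84. The ratios were not tested, because the pairs were chosen for their values; in 3 of them the members already lay apart between regions in opposite directions, which fixes that the ratios do not overlap.

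**Figure D4:**
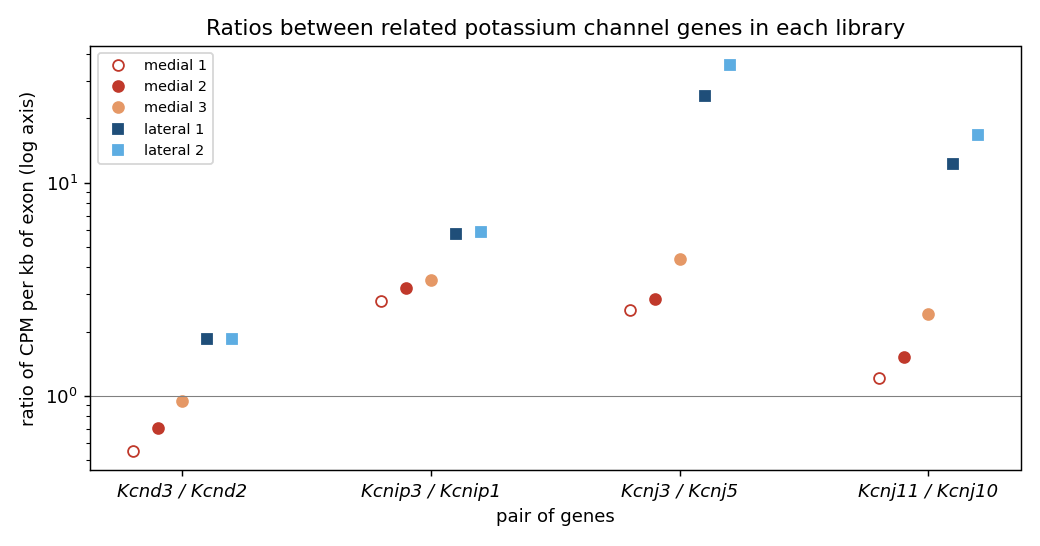
Ratio of CPM per kilobase of exon on a log axis (vertical) for 4 pairs of related members (horizontal), with 1 point per library; circles are the 3 medial and squares the 2 lateral libraries. In each pair the lateral ratios are the higher ones, and the Kcnd3 to Kcnd2 ratio is below 1 in medial and above 1 in lateral libraries.

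Summed over all 93 members, reads made up 504, 615 and 636 CPM in medial and 721 and 848 CPM in lateral libraries. The voltage-gated genes had the largest sum of the 6 role groups, at 241 ± 19.8 CPM over the medial (SD, n = 3) and 397 ± 66.5 CPM over the lateral libraries (SD, n = 2). Modifier genes summed to 15.3 ± 4.28 against 50.1 ± 14.1 CPM, calcium- or sodium-activated genes to 57.8 ± 12.6 against 94.7 ± 0.230 CPM, and inward rectifiers to 57.4 ± 13.8 against 91.9 ± 9.19 CPM. The sums ran the other way for two-pore genes, at 103 ± 6.35 against 77.9 ± 5.27 CPM, and for auxiliary genes, at 110 ± 23.2 against 72.4 ± 4.43 CPM. The auxiliary sums leaned on Kcnip3, Kcnip1 and Kcne1l. Their mean levels were 41.5, 22.6 and 16.0 CPM in medial and 24.5, 7.41 and 5.03 CPM in lateral libraries. Of the 13 auxiliary genes tested, 6 had a positive and 7 a negative log2 fold change, with a median of −0.16. In all 6 role groups the medial and lateral sums did not overlap, as was also so for 53.3% of all single genes tested. A sum follows its most abundant members, such as Kcnk10 in the two-pore group (mean 67.7 CPM in medial and 51.8 CPM in lateral libraries). Medial library 1 had the lowest sum of all libraries in the voltage-gated, modifier, calcium- or sodium-activated and inward rectifier groups. The inward rectifier sums leaned on Kcnj11, with 7.15, 17.5 and 21.6 CPM in medial and 41.7 and 49.4 CPM in lateral libraries. Kcnj11 did not pass, and both inward rectifier genes that passed were higher in medial cortex. Per kilobase of annotated exon, the highest mean levels over all 5 libraries were those of Kcnip3 (9.79 CPM per kb), Kcne1l (7.52), Kcnj11 (7.47), Kcnk10 (6.995) and Kcna3 (6.81). In medial libraries alone Kcnip3 (11.7) and Kcne1l (10.4) led, and in lateral libraries Kcnj11 (12.4) and Kcna3 (12.2).

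**Figure D5:**
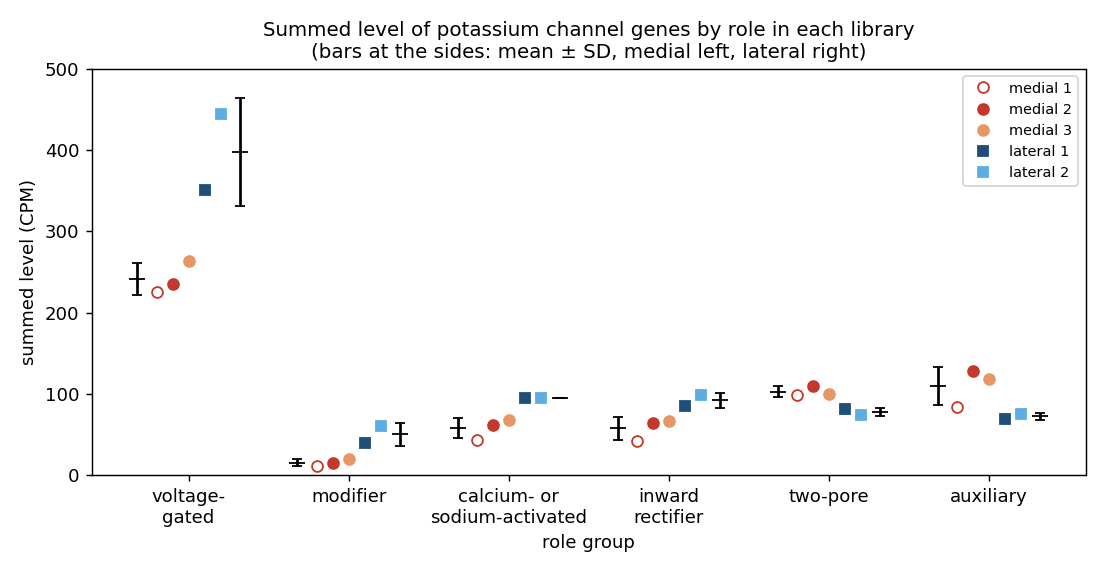
Summed level in CPM (vertical) of the members of each role group (horizontal) in each library, with circles for the 3 medial and squares for the 2 lateral libraries and the mean and SD beside them (medial left, lateral right). The voltage-gated sums are 225 to 263 CPM in medial and 350 to 444 CPM in lateral libraries, while the two-pore and auxiliary sums are higher in medial libraries. Among the tested auxiliary genes 6 had a positive and 7 a negative log2 fold change, with a median of −0.16.

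Genes outside the Kcn family that assemble with these channels or move potassium were taken from a list of 40, of which 37 were tested, 4 were higher in medial cortex and 7 were lower (29.7% in all, against 9.72% of all genes, of which 4.62% were higher and 5.1% lower). Among channel partners, Dpp10, an auxiliary subunit of Kcnd channels, was lower, with 1.21, 1.33 and 2.45 CPM in medial and 5.98 and 10.3 CPM in lateral libraries (log2 fold change −2.25, SE 0.37, edgeR adjusted p = 0.0321). The adhesion molecule Cntn2 (−1.79, SE 0.25), the spectrin anchor Ank3 (−1.02, SE 0.17) and the Lgi1 receptor Adam22 (−0.68, SE 0.12) were lower as well. Other genes of the list with a part in placing channels did not pass, and their fold changes had both signs. The potassium-chloride cotransporter gene Slc12a5 was lower (−1.08, SE 0.22), while its relative Slc12a7 was higher (0.52, SE 0.11). The edgeR adjusted p-values of the 5 that passed were between 0.0296 and 0.0427. Slc12a5 is the neuronal cotransporter that lowers chloride as GABA becomes inhibitory. Abcc8, given above with Kcnj11, was also among the 7 lower genes.

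Rest, a repressor of neuronal genes in non-neuronal cells, was higher in medial cortex, with 83.3, 80.2 and 78.2 CPM against 53.8 and 41.8 CPM (log2 fold change 0.75, SE 0.12, edgeR adjusted p = 0.0318). Each medial library lay above both lateral ones, with little spread among them. Calm2, a calcium sensor and resident subunit of Kcnq and Kcnn channels, did not pass (−0.37, SE 0.11, edgeR adjusted p = 0.0849). Without medial library 2 edgeR called 0 genes of this list too (0% of all genes). Without medial library 3 it called 2, both lower (3.01% of all genes).

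The other 23 members were not tested. They had between 0 and 38 reads in all 5 libraries together, and 14 of them had fewer than 10. They were Kcnj12, Kcnk9, Kcnh6, Kcnj6, Kcnj15, Kcng3, Kcnmb1, Kcnj16, Kcng2, Kcns1, Kcna7, Kcnk7, Kcng4, Kcnj13, Kcnk4, Kcnk15, Kcne1, Kcnj1, Kcnk18, Kcnv2, Kcna10, Kcnk16 and Kcnmb3. Kcnk9, an acid-sensitive two-pore channel gene, had 27 of its 37 reads in medial library 1, and Kcng3, a modifier gene, had 18 of its 23 reads in lateral library 2. Kcnmb3 had 0 reads in every library, which allows up to 0.109 CPM in the shallowest and 0.0448 CPM in the deepest, for counting error only.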

How the data were processed

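RNA sequencing counts from 3 medial and 2 lateral cortex libraries were analysed, with groups taken from the labels. The authors deposited 1 file per library of raw read counts per gene symbol. Per the submitters' processing notes, BWA, STAR, HTSeq and the build mm9 were used; versions, roles and the annotation are not given in the sources used here. The 5 classes of reads assigned to no gene (23.1% to 28.7% of each file) were left out. Counts were filtered with filterByExpr (count 10, total 15), scaled by TMM and tested by quasi-likelihood (newer form) in edgeR 4.0.16, run under R 4.3.3. Region was the sole model term, which left 3 residual degrees of freedom. Benjamini-Hochberg adjustment ran over the 16229 genes tested, with a threshold of 0.05. Each standard error is the size of a log2 fold change over the square root of its F. Means are given with the SD. The test was checked on simulated data.

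The members, lists and rule for named genes were chosen with earlier results of these data known. The rule named every member past the threshold, the 3 others with the highest level in each of 6 role groups, members with a log2 fold change of at least 2 and 15 fixed anchors. From the list of 40 channel partners and potassium-handling genes it named those past the threshold and 2 more. Some genes that this rule names are not reported here. Alternatives covered scaling, DESeq2 1.42.0, limma-voom (limma 3.58.1), filters, thinning, blocks and leaving out each library; DESeq2 without each library was added after the data were seen. Exon lengths and overlapping genes came from GENCODE M21 (GRCm38) by symbol, for 70 of 70 tested members; no positions of the counted annotation are given.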

Additional observations from a re-analysis of the deposited data

How the results depend on the processing

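The 13 calls among potassium channel genes came from edgeR with all 5 libraries, and the counts of 4 higher and 9 lower members stayed within 1.5 times under the other scalings, filters, limma-voom, the older quasi-likelihood form and thinning. Scaling shifted the median of all genes by at most 0.070 (log2). DESeq2 called 21 members lower, and 11 lower partner genes, and it called 11% of all genes lower. With no low-count filter 2 partner genes were higher, and 4.1% of all genes were called in either direction. Leaving out each medial library gave 0 to 6 higher and 0 to 16 lower members, and 0 to 4 higher and 0 to 12 lower partner genes, in edgeR. Of all genes, edgeR called 13.2%, 0% and 3.01% without medial libraries 1, 2 and 3. In DESeq2, without medial libraries 1, 2 and 3, higher members were 7, 5 and 7, and lower members 23, 16 and 20. Higher partner genes were 4, 2 and 3 there, and lower partner genes 13, 9 and 13. Of all genes, DESeq2 called 19.7%, 13% and 19.4% in either direction in these fits. In each of the 5 edgeR fits that left out 1 library all 13 members kept their direction. Those fits reuse libraries of the full one, so this adds no support.

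The labels do not say that replicate numbers pair libraries. Medial library 3 is alone in its block by replicate number, and medial library 1 in its block by tag. Neither adds to the fold change in that fit. Deviations from the group mean over tested genes correlated at 0.0897 for the libraries numbered 1 and −0.378 for those numbered 2. With a block by replicate number 1 member was higher and 8 lower, and 2 partner genes were higher and 7 lower. Of all genes, 6.63% were called in that fit. Of the 13 members 5 kept their call, and Kcnma1 and Kcnmb2 were among those that lost it, at −1.33 and −2.08. Kcng1, Kcnh3 and Kcnj3 were among those called in addition. By a tag in the deposited names, medial library 2 pairs with lateral library 1 (0.378) and medial library 3 with lateral library 2 (0.427); with 2 lateral libraries their deviations mirror each other, so 0.378 is the −0.378 above with its sign turned and no separate evidence. With a block by that tag 13 members were higher and 34 lower (33.1% of all genes were called), and 15 partner genes were lower.

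Among the genes named here directions reversed in 4 members, none of which had passed (log2 fold changes). With limma-voom Kcnh7 was −0.0019. With the replicate block Kcnh7 was −0.17. With the tag block Kcnab2 was −0.13 and Kcne2 0.042. Leaving out each library gave −0.13 (without medial library 3) to 0.23 for Kcnh7, −0.13 (without medial library 1) to 0.16 for Kcnab2, −1.26 to 0.25 (without medial library 1) for Kcne2, and −0.48 to 0.069 (without lateral library 2) for Kcnmb4. The cause of these changes was not tested. Kcnc4, Kcne2, Kcnip4, Kcnn4 and Kcns2 had under 100 reads in all, which limits the precision of their folds. Kcnc4 passed with libraries thinned to the smallest (−2.69, adjusted p = 0.0367 in edgeR) and did not pass in the main fit (edgeR adjusted p = 0.0568).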
